A study of Mus musculus with 6 samples.

Results

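The 75 genes described here encode proteins of the cytosolic ribosome in mouse embryonic stem cells with and without the homeobox gene Hoxd12. They were taken by symbol from the 55450 genes of the files: protein-coding genes named Rpl or Rps followed by a digit, Rplp0, Rplp1, Rplp2 and Rpsa. Pseudogenes, the Rps6k kinases, 10 genes of paralogue groups named in the rule and the binding partner Rps19bp1 were left out. Those 10 include genes of main ribosomal proteins, among them Rps27, and not only their paralogues. Also left out were 6 genes annotated as protein-coding but named as pseudogenes. The shares, sums and ratios below therefore cover the 75 members and not every ribosomal protein. Of the 75 members, 44 belong to the large (60S) subunit and 31 to the small (40S) subunit. All 75 passed the filter on low counts that left 12891 genes for testing. The rule uses no measured values, though it was written with earlier results of these data known.

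RNA was sequenced from C57BL6 embryonic stem cells derived at the E3.5 embryo stage and grown in mES+2i medium. There were 3 libraries of the genotype Hoxd12-/- and 3 wild-type libraries, and both groups had the same strain and medium. The labels do not say whether the knockout cells are 1 clone or several, or whether the libraries of a group are separate cultures, so the p-values reflect the spread among these 6 libraries only, which may be technical. Each library was a stranded mRNA library from total RNA.

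Ribosomal proteins assemble with ribosomal RNA in the nucleolus into the subunits that translate mRNA. Their genes are spread over the chromosomes, are among the most actively transcribed genes of dividing cells, and have left many processed pseudogenes in mammalian genomes. Many of their mRNAs begin with a cytosine and a run of pyrimidines, the terminal oligopyrimidine (TOP) motif, through which mTOR and LARP1 control their translation. Several members are studied for effects on particular mRNAs, among them Rpl38, whose loss in the mouse alters the axial skeleton and the translation of a subset of Hox mRNAs.

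The deposited expected counts summed to between 5412577 and 6280934 per library, and 3 counts, the limit that a count of 0 allows, corresponded to 0.478 to 0.554 CPM (counts scaled to a common library total). Hoxd12 had 0 counts in all 6 libraries, so its level could not check the genotype labels. All 8 stem cell markers were tested, and their summed level was 8541 to 9031 CPM in the knockout and 8376 to 8998 CPM in the wild type, most of it from Dppa5a. Among them Nanog fell at a log2 fold change of -0.39 (edgeR, adjusted p = 0.00167) and Zfp42 rose at 0.29 (adjusted p = 1.43e-05), and the other 6 were not called. Of 8 fibroblast markers, 4 were at 0 in every library (Col3a1, Dcn, Lum and Postn), and the sum of the list was 7.16 to 11 CPM in the knockout and 12 to 16.9 CPM in the wild type, with Thy1 called lower (-0.97, edgeR adjusted p = 0.00859). Of 6 primitive endoderm markers, Sox7 was at 0, and the sum was 5.84 to 11 CPM in the knockout and 3.41 to 6.44 CPM in the wild type, with Gata4 called higher (1.10, edgeR adjusted p = 0.0247). Knockout replicate 2 stood apart in the ribosomal RNA locus CT010467.1, which took 1.63% of its counts against 0.102 to 0.139% elsewhere, and in Lars2, with 22217 counts against 3997 to 5768 elsewhere. The part of these differences in the results below was not tested, apart from the values given without that library. In bulk RNA, fewer cells of a type and less RNA per cell cannot be told apart.

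Ribosomal protein transcripts formed a large part of every library. The 75 genes took 15.34%, 15.61% and 14.83% of the counts in knockout replicates 1 to 3. They took 15.78%, 16.55% and 16.46% in wild-type replicates 1 to 3. Every knockout library lay below every wild-type library, with group means of 15.3% ± 0.396 and 16.3% ± 0.421 (SD, n = 3 each). In TPM, which divides by transcript length before scaling, the share was 27.1%, 26.8% and 26.5% in the knockout and 27.1%, 28.0% and 27.8% in the wild type. The highest knockout and the lowest wild-type library were nearly equal on that scale.

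On the TPM scale, 70 members had a mean level above 1000, and 57 of the 100 tested genes with the highest mean TPM were members. The median member stood at 3287 TPM. The highest levels belonged to Rplp1, a stalk protein, at 11790 TPM, Rpl41, a very small basic protein of the large subunit, at 9290 TPM, Rpl13a at 8047 TPM, Rpl32 at 7885 TPM and Rpl36 at 7480 TPM. The lowest members were Rpl5 at 85.9 TPM, Rpl12 at 205 TPM and Rps12 at 264 TPM. The span from the lowest to the highest was 137-fold, although a ribosome holds like numbers of most of these proteins.

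Copies took most of the reads of a few members. A search among pseudogenes, and genes named as such, for those with at least 20% of their own 31-base words in a member found 686 such copies, and 74 members had at least 1. For 9 members over 50% of the combined counts stood at copies. These were Rpl5 (96.7%), Rps12 (96.2%), Rpl12 (93.6%), Rpl3 (70.9%), Rpl27a (66.0%), Rps7 (57.9%), Rps23 (53.4%), Rps13 (53.3%) and Rps16 (51.0%). For the first 3, the copy with the most counts carries the whole open reading frame of the member without a difference, so reads from it match both loci equally well. The sequences below are the first 60 bases of those reading frames in the GENCODE M21 transcripts (GRCm38), with the start codon in capitals, and show what cannot be assigned to 1 locus by sequence.
Rps12: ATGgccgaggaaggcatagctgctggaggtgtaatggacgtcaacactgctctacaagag
Rpl12: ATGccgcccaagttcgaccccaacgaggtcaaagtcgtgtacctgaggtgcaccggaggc
Rpl5: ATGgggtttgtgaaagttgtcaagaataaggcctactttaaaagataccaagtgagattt

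Rps12 (chr10:23785183-23787275, minus strand) encodes a protein on the beak of the small subunit, and its copy Rps12-ps3 lies at chr19:59322290-59322783 with all 399 coding bases identical. Rps12 had 859, 696 and 710 counts in the knockout and 806, 876 and 918 in the wild type, while its copies together had 21143, 19621 and 20797 in the knockout and 19454, 21969 and 20964 in the wild type. Rpl12 (chr2:32961559-32965345, plus strand), a stalk base protein, shares 498 of 498 coding bases with Gm10275 (chr10:29698746-29699380). Rpl5 (chr5:107900502-107909005, plus strand), which binds 5S ribosomal RNA with Rpl11, shares 894 of 894 with Gm15500 (chr7:114705217-114706235). The Rpl5 copies held 16995, 15116 and 16572 counts in the knockout and 15250, 16717 and 15749 in the wild type, against 460 to 610 at Rpl5 itself. The low levels listed for these genes are therefore uncertain as levels of the gene.

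When the copies of each member were added to it, Rps12 stood at 9044 TPM, Rpl12 at 5710 TPM, Rpl3, a large core protein, at 3108 TPM and Rpl5 at 3048 TPM. The range over the members narrowed from 137-fold to 40.7-fold. The lowest was then Rps27rt, an intronless gene derived from Rps27, at 290 TPM. It was followed by Rpl36al, a paralogue of Rpl36a, at 1080 TPM and Rpl35 at 1722 TPM. The search for copies was limited to pseudogenes and genes named as such. Whether Rps27rt shares reads with Rps27, or Rpl36al with Rpl36a, was not tested. The share of all counts at copies alone was 3.258%, 3.341% and 3.175% in the knockout and 3.244%, 3.353% and 3.321% in the wild type, and these ranges overlapped.

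**Figure D1:**
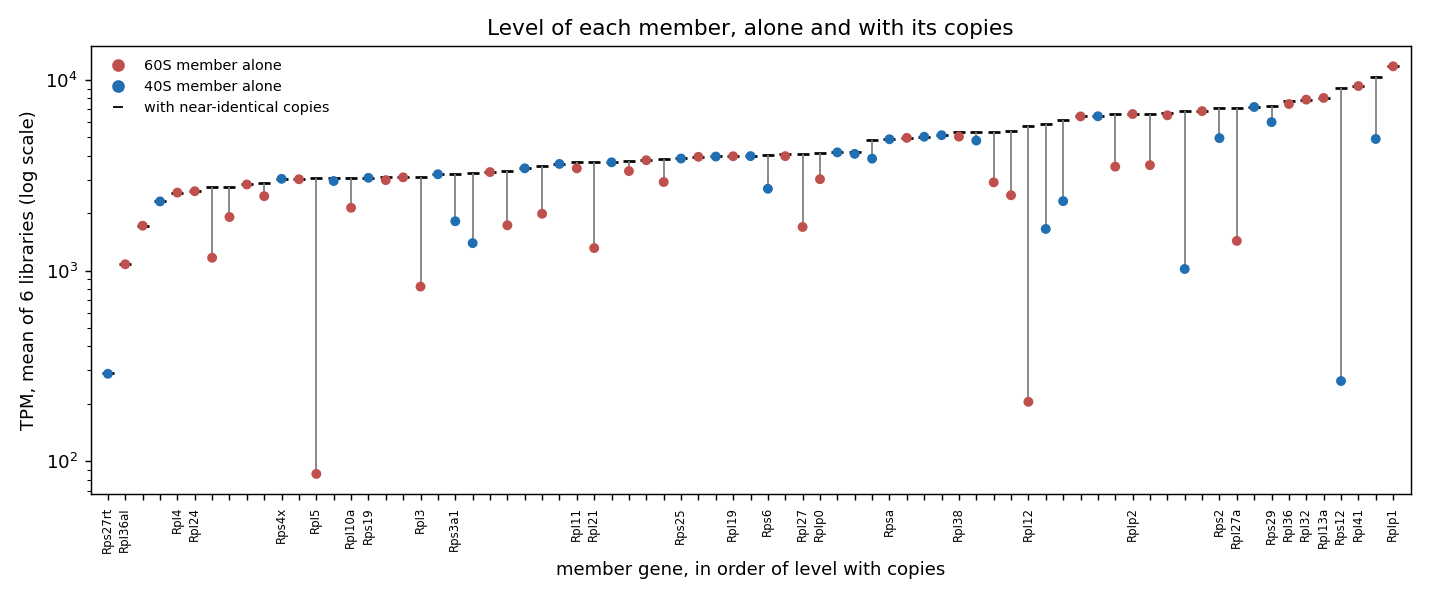
Mean TPM over 6 libraries (log axis) of each of the 75 members alone (points, coloured by subunit) and with its near-identical copies added (dashes joined by lines), in order of the level with copies and with names for some. Rpl5, Rpl12 and Rps12 have the longest lines, and Rplp1 is highest on both measures.

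Levels were compared between genotypes gene by gene on the expected counts. Of the 75 members, 48 fell in the knockout, 0 rose and 27 did not pass the test (quasi-likelihood test of edgeR, with p adjusted by Benjamini-Hochberg over all 12891 genes and called below 0.05), where 14.4% of all tested genes were called lower and 12.1% were called higher. The members' median log2 fold change was -0.16, against 0.02 over all tested genes, and the direction turned, to 0.02, after each library was corrected for transcript length and GC content. Of the 75 values 66 were below 0. Values ran from -0.54 to 0.08 with a median standard error of 0.0456. The count of calls changed with the libraries used: leaving out wild-type replicate 2 left 31 members called lower, and leaving out knockout replicate 2 gave 55. Calls over all tested genes changed as well, with 1471 and 1765 called lower in those fits against 1861 with every library. The members' medians in those fits were -0.15 and -0.20. After the length and GC correction 6 members were called lower and 17 called higher, where 12.8% and 11.3% of all genes were called.

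**Figure D2:**
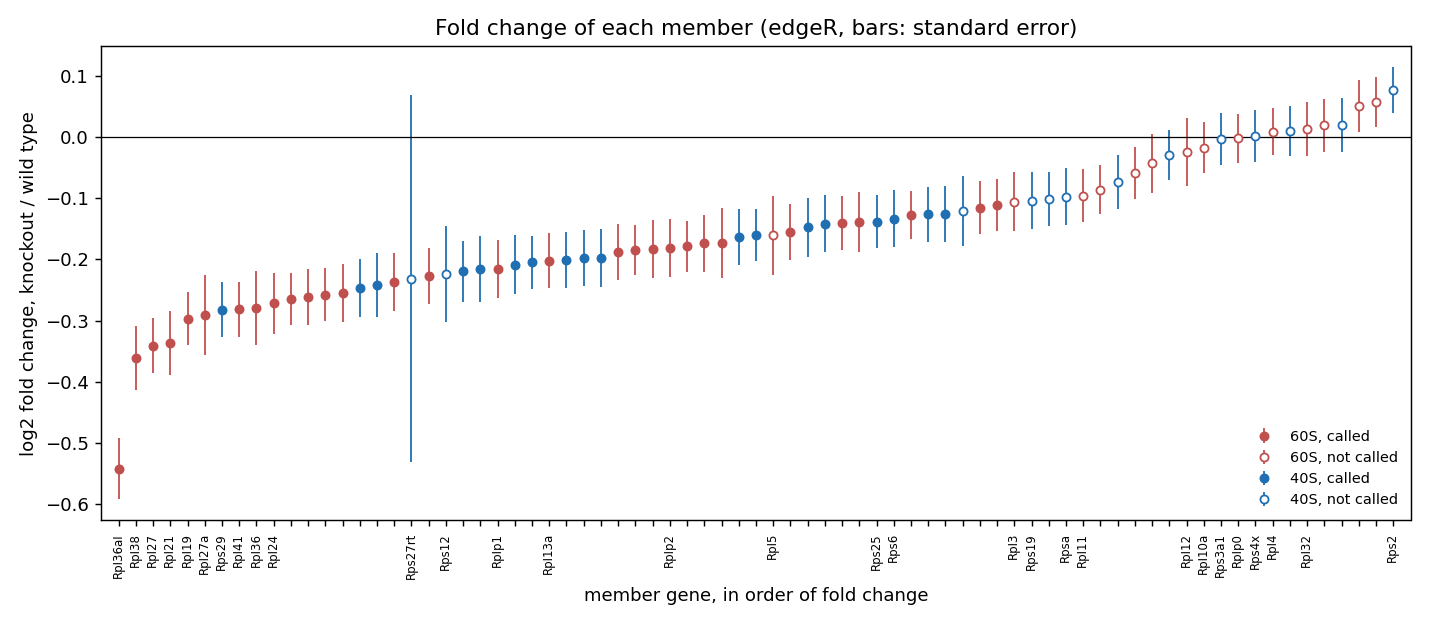
Log2 fold change (knockout over wild type, edgeR) of each member with its standard error as a bar, in order of size and coloured by subunit, with filled points for called genes and some genes named. The 48 called members all lie below 0, Rpl36al is lowest at -0.54 and Rps2 highest at 0.08.

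Library by library, the shift was graded rather than split evenly by genotype. The median deviation of the members from their own 6-library mean, in log2 CPM after TMM scaling (edgeR's correction for library composition), was -0.09, 0.004 and -0.16 in knockout replicates 1 to 3 and 0.02, 0.11 and 0.11 in wild-type replicates 1 to 3. The groups did not overlap, but knockout replicate 2 and wild-type replicate 1 lay close together. Over the 961 other tested genes with transcripts below 800 bases the same medians were -0.12, -0.03 and -0.15 in the knockout and 0.09, 0.14 and 0.14 in the wild type. The order of the 6 libraries was the same for the members and for the other short genes.

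**Figure D3:**
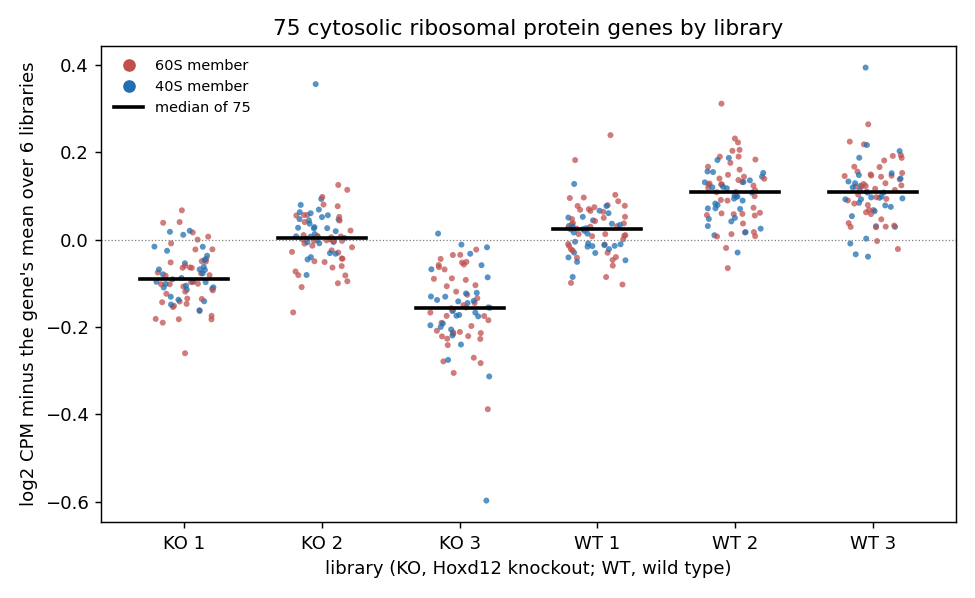
Deviation of each of the 75 members from its own mean over 6 libraries (log2 CPM, vertical axis) in each library, with points coloured by subunit and the median as a line. The medians run from -0.16 in knockout replicate 3 to 0.11 in wild-type replicates 2 and 3, and knockout replicate 2 lies at 0.004.

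Genes whose knockout and wild-type CPM ranges did not overlap were counted as well. For 43 members all 3 knockout values lay below all 3 wild-type values, and for 1 member, Rps2, they lay above, where 20% and 19.6% of all tested genes had such ranges. In TPM the counts were 32 lower and 15 higher, where 12% and 25.4% of all tested genes had such ranges.

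The largest fall was in Rpl36al, which encodes a form of the protein eL42 at the tRNA exit region. It had 388, 414 and 355 CPM in knockout replicates 1 to 3 and 549, 577 and 558 CPM in wild-type replicates 1 to 3. Every knockout value was far below every wild-type value. The log2 fold change was -0.54 with a standard error of 0.0492 (edgeR, adjusted p = 2.73e-10), and after the length and GC correction it was -0.30 (adjusted p = 4.47e-07). Its paralogue Rpl36a, on the X chromosome, had a log2 fold change of -0.14 (adjusted p = 0.0324), and -0.12 (adjusted p = 0.0629) with its copies added.

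Rpl38, a small protein on the surface of the large subunit (chr11:114668524-114672331), was next. Its level was 1143, 1234 and 1044 CPM in the knockout and 1379, 1505 and 1507 CPM in the wild type, and the groups did not overlap. The log2 fold change was -0.36 with a standard error of 0.0527 (edgeR, adjusted p = 9.57e-06), -0.25 on the log2(TPM + 1) scale (limma, adjusted p = 0.00230) and -0.13 after the length and GC correction (edgeR, adjusted p = 0.00790). With 368 bases it was also the shortest member.

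Rpl27, a large-subunit protein whose gene is mutated in some cases of human Diamond-Blackfan anaemia, had 797, 851 and 777 CPM in the knockout and 1031, 999 and 1039 CPM in the wild type. Its log2 fold change was -0.34 (edgeR, adjusted p = 6.03e-07). Nearly as many reads stood at its copies (44.5%), and with them the value was -0.31. The copies Gm11518 and Rpl27-ps3, on chromosomes 11 and 18, have each of their own 31-base words in Rpl27 and were listed with the same count in each library, 1996, 1928 and 2050 in the knockout and 2161, 2576 and 2353 in the wild type. Reads that match these loci equally well cannot be assigned to 1 of them by sequence.

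Rpl21, with 1074, 1183 and 1002 CPM in the knockout and 1302, 1431 and 1382 CPM in the wild type, had a log2 fold change of -0.34 (edgeR, adjusted p = 1.78e-05). At 977 bases it was the one long transcript among the large falls, and it kept -0.23 after the length and GC correction (adjusted p = 7.27e-05) and -0.26 with its 65 copies added. Rpl19, which lies at the exit tunnel and reaches toward the small subunit, had 2432, 2557 and 2342 CPM in the knockout and 2855, 3057 and 3091 CPM in the wild type. Its log2 fold change was -0.30 (edgeR, adjusted p = 2.19e-06), and -0.10 after the length and GC correction (adjusted p = 0.00934). In Rpl21 and Rpl19 no knockout value reached the lowest wild-type value.

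The 5 other members among the 10 with the largest change were Rpl27a (-0.29), Rps29 (-0.28), Rpl41 (-0.28), Rpl36 (-0.28) and Rpl24 (-0.27), with edgeR adjusted p-values from 1.11e-05 for Rps29 to 0.00428 for Rpl27a. Rps29, a small zinc-binding protein, was the only small-subunit gene among the 10, with 1527, 1592 and 1466 CPM in the knockout and 1763, 1872 and 1938 CPM in the wild type. Rpl41 had 3679, 4089 and 3603 CPM in the knockout and 4395, 4806 and 4620 CPM in the wild type. Both sets of values were apart between the groups. None of these 5 was called after the length and GC correction, where the values were -0.10, -0.04, -0.04, -0.09 and -0.09 in the order given first. With copies added Rpl27a, for which most reads stood at copies, had -0.15 (adjusted p = 0.00607).

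The starts of some members with large falls and of some with high values were compared by sequence, since TOP mRNAs are defined by their first bases. RefSeq promoter sequences (GRCm38.p6) were at hand for 56 of the 75 members. Each line gives 20 bases before the annotated start and 15 from it, so that the start is the 21st base, and capitals mark the longest run of at least 5 pyrimidines, or the first of them where runs tie. Only members with 1 start in the table were taken, and not all of those were considered. Of the members considered, the 4 with the lowest fold change are given first and the 4 with the highest after them.
Rpl36al: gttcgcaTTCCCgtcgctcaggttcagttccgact
Rpl38: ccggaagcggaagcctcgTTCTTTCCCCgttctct
Rpl27: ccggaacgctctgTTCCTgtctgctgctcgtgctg
Rpl27a: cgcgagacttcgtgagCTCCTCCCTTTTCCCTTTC
Rps3: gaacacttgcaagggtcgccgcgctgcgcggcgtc
Rps7: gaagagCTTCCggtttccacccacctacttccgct
Rpl13: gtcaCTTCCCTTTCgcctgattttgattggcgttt
Rps2: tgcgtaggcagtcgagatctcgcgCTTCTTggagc

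These stretches lie at chr12:69184053-69184087 (minus) for Rpl36al, chr11:114668560-114668594 (plus) for Rpl38, chr11:101442225-101442259 (plus) for Rpl27 and chr7:109519175-109519209 (plus) for Rpl27a. They lie at chr7:99483695-99483729 (minus) for Rps3, chr12:28635939-28635973 (minus) for Rps7, chr8:123102330-123102364 (plus) for Rpl13 and chr17:24720043-24720077 (plus) for Rps2. In Rpl38 and Rpl27a the run spans the annotated start, in Rps2 it begins just after it, and in Rpl36al, Rpl27 and Rpl13 it ends before it. Rps7 has 3 runs of the same length, of which the first 2 end before the start and the last lies after it. Rps3 has no such run in the window. Annotated starts can differ from those used in these cells.

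Among the 56 members, 13 (23.2%) had a C at the annotated start followed by at least 4 pyrimidines (C or T, on the gene's strand), as had 813 of the 27025 genes of the table (3.01%). A C followed by at least 4 pyrimidines beginning within 20 bases of the start was present in 45 members (80.4%) and in 53.3% of all genes. The start pattern stood in 10 of the 36 members called lower that have a sequence (27.8%) and in 3 of the 20 not called (15%). The letters CCGGAAG, on either strand in the 250 bases before the start, were present in 18 of 56 members (32.1%) and in 7.83% of all genes. That pattern was chosen after the sequences were seen and can overlap others, and such matches describe the sequence only.

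Large-subunit genes were slightly lower in the knockout than small-subunit genes. Of the 44 large-subunit genes 30 fell and 0 rose, with a median log2 fold change of -0.18. Of the 31 small-subunit genes 18 fell and 0 rose, with a median of -0.14. Over all tested genes the shares called were 14.4% lower and 12.1% higher. The difference of the medians was -0.03, small beside the SD of 0.11 over all members, and -0.009 after the length and GC correction. The median transcript length was 687 bases for the large and 630 bases for the small subunit.

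The summed counts of the large subunit were 1.381, 1.363 and 1.378 times those of the small subunit in knockout replicates 1 to 3. They were 1.402, 1.393 and 1.402 times in the wild type. The lowest wild-type ratio stood above the highest knockout ratio, and the means were 1.374 ± 0.00964 and 1.399 ± 0.00520 (SD, n = 3 each). In TPM the ratios were 1.458, 1.446 and 1.449 in the knockout and 1.488, 1.491 and 1.492 in the wild type, again without overlap. Between the group means the summed large-subunit TPM differed by -6800, from 165300 to 158500, and the summed small-subunit TPM by -1667, from 111000 to 109300 with overlapping libraries.

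**Figure D4:**
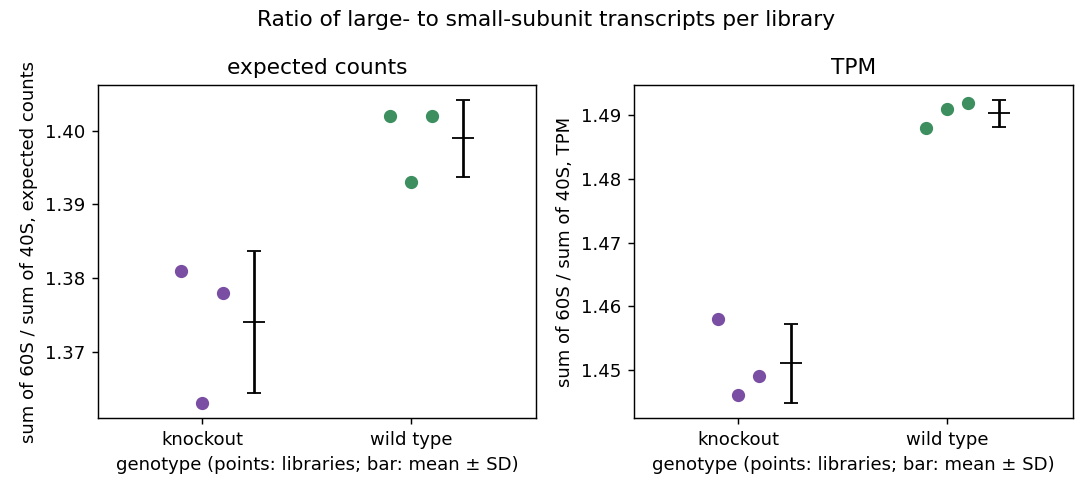
Summed large-subunit over summed small-subunit level in each library, from expected counts (left) and TPM (right), as points beside the mean and SD of each genotype; the vertical axes do not start at 0. The knockout libraries lie between 1.363 and 1.381 in counts and the wild-type libraries between 1.393 and 1.402.

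Of the stalk, the flexible arm of the large subunit that recruits elongation factors, 2 of 4 genes fell. In the same fit 14.4% of all tested genes were called lower. Rplp1 had 4390, 4734 and 4058 CPM in the knockout and 4855, 5209 and 5245 CPM in the wild type, with a log2 fold change of -0.22 (edgeR, adjusted p = 0.00148). Rplp2 had a log2 fold change of -0.18 (adjusted p = 0.00581). Their anchor Rplp0, with 3736, 3905 and 3628 CPM in the knockout and 3652, 3801 and 3835 CPM in the wild type, overlapped between groups and had a log2 fold change of -0.002 (adjusted p = 0.974). Rpl12, at the stalk base, had -0.03 (adjusted p = 0.789) and 0.04 (adjusted p = 0.471) with its copies. The Rplp1 and Rplp2 transcripts are short (499 and 556 bases) and the Rplp0 transcript is long (1261 bases). After the length and GC correction Rplp1 had 0.02, Rplp2 0.06 and Rplp0 0.06, none of them called, and on log2(TPM + 1) Rplp0 was called higher at 0.17 (limma, adjusted p = 0.00638).

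The 5S particle proteins Rpl5 and Rpl11, which bind Mdm2 and stabilise p53 when ribosome assembly is disturbed, were not called. Rpl11 had 1812, 1874 and 1760 CPM in the knockout and 1844, 1996 and 1982 CPM in the wild type, a log2 fold change of -0.10 (edgeR, adjusted p = 0.102). After the length and GC correction it was called higher, at 0.14 (adjusted p = 0.00123), and with copies added it was called lower. Rpl5 had a log2 fold change of -0.16 (adjusted p = 0.0656) as listed and 0.0004 (adjusted p = 0.996) with its copies, so the listed value describes the small part of the reads assigned to the gene itself.

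At the exit tunnel, through which the nascent chain leaves, 5 of 7 genes fell (Rpl19, Rpl23a, Rpl26, Rpl31 and Rpl35). The other 2, Rpl4 and Rpl17, had log2 fold changes of 0.009 and 0.02. In a list drawn up for the mRNA channel and the decoding centre, which also held the beak protein Rps12, 4 of 7 fell, among them Rps9, Rps15 and Rps23, while Rps2, Rps3 and Rps12 were not called. Of the 18 members mutated in human Diamond-Blackfan anaemia, an inherited red cell aplasia, 13 fell, with a median log2 fold change of -0.17. These shares stand beside 48 of 75 for all members and 14.4% of all tested genes called lower. None of the genes of these lists was called higher in that fit, where 12.1% of all tested genes were.

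Among members studied for effects on particular mRNAs, Rpl38 fell as given above. Rps25, needed for internal initiation on some viral RNAs, had 1670, 1742 and 1601 CPM in the knockout and 1769, 1880 and 1868 CPM in the wild type. Its log2 fold change was -0.14 (edgeR, adjusted p = 0.0171), the call was lost when knockout replicate 1, knockout replicate 3, wild-type replicate 2 or wild-type replicate 3 was left out, and after the length and GC correction the value was 0.07. Rpl10a, enriched in ribosomes that translate particular mRNAs in mouse stem cells, had 1656, 1653 and 1630 CPM in the knockout and 1622, 1676 and 1700 CPM in the wild type. Its groups overlapped at -0.02 (adjusted p = 0.806), and after the length and GC correction it was called higher, at 0.16 (adjusted p = 3.76e-04).

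Rps6, the target of the S6 kinases, had 2129, 2251 and 1959 CPM in the knockout and 2203, 2367 and 2382 CPM in the wild type, and the groups overlapped. Its log2 fold change was -0.13 (edgeR, adjusted p = 0.0330). The call was lost with copies added (-0.08, adjusted p = 0.150) and when any of the same 4 libraries was left out, and the direction turned after the length and GC correction (0.02). Rps19, the gene first linked to Diamond-Blackfan anaemia, had a log2 fold change of -0.10 (adjusted p = 0.101), and it was called higher after that correction, at 0.11 (adjusted p = 0.00888). Rpsa, also known as a laminin receptor, had -0.10 (adjusted p = 0.126).

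Of the most abundant members, Rplp1, Rpl41, Rpl13a and Rpl36 fell and Rpl32 was not called. Rpl13a, a part of the complex that silences inflammatory mRNAs in human monocytes, had 3629, 3907 and 3362 CPM in the knockout and 4029, 4226 and 4283 CPM in the wild type, a log2 fold change of -0.20 (edgeR, adjusted p = 0.00110) and 0.04 after the length and GC correction. Rpl32 had 3277, 3561 and 3199 CPM in the knockout and 3136, 3414 and 3397 CPM in the wild type. The Rpl32 groups overlapped at 0.01 (adjusted p = 0.863), although the transcript is short at 518 bases, and after the correction it was called higher at 0.25 (adjusted p = 6.03e-09).

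The values nearest 0 belonged to Rps4x at 0.001, Rplp0 at -0.002 and Rps3a1 at -0.004. The longest members were Rpl4 with 1472 bases and a log2 fold change of 0.009, and Rpl3 with 1351 bases and -0.11 (edgeR, adjusted p = 0.111). The shortest after Rpl38 was Rps27rt with 374 bases, whose counts scattered most: 67.6, 95.1 and 49.1 CPM in the knockout and 70.0, 78.0 and 97.6 CPM in the wild type gave -0.23 with a standard error of 0.299 (adjusted p = 0.652).

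Rps2, chosen after its values were seen, was the only member with all knockout CPM above all wild-type CPM. It encodes a protein at the mRNA entry channel and had 4775, 4975 and 4754 CPM in the knockout and 4545, 4613 and 4600 CPM in the wild type. The log2 fold change was 0.08 (edgeR, adjusted p = 0.133), 0.008 with copies added (adjusted p = 0.892), and 0.19 after the length and GC correction (adjusted p = 2.59e-07). Its main copy, Rps2-ps10, went the other way at -0.17 (adjusted p = 0.00700).

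The members' values differed more by transcript length than by subunit. Of 19 members below 550 bases 17 fell, with a median log2 fold change of -0.22, and of 20 members from 800 to 1500 bases 5 fell, with a median of -0.06. The other tested genes of the same lengths were much alike: 362 genes below 550 bases had a median of -0.23 and 2704 genes from 800 to 1500 bases had a median of -0.06. In between, 12 of 17 members from 550 to 650 bases fell with a median of -0.20, where 205 other genes had -0.24, and 14 of 19 members from 650 to 800 bases fell with a median of -0.16, where 394 other genes had -0.19. No member was longer, while 9151 other genes from 1500 bases had a median of 0.06.

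Of the other genes, 125 of 362 were called lower below 550 bases, 78 of 205 from 550 to 650 bases, 138 of 394 from 650 to 800 bases and 614 of 2704 from 800 to 1500 bases. The difference from the members' shares was not tested. Across the 75 members, which share the 6 libraries, the Spearman correlation of log2 fold change with length was 0.495 (0.421 for the large and 0.611 for the small subunit), and with GC content it was -0.06. Across the 12816 other tested genes the correlation with length was 0.225. The median length was 665 bases for members and 2224 bases for the other genes, and the GC contents were alike at 51.9% and 50.3%. A shift of all short transcripts between libraries and an effect of genotype on these genes cannot be told apart here, since the medians of the other short genes did not overlap between the groups.

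**Figure D5:**
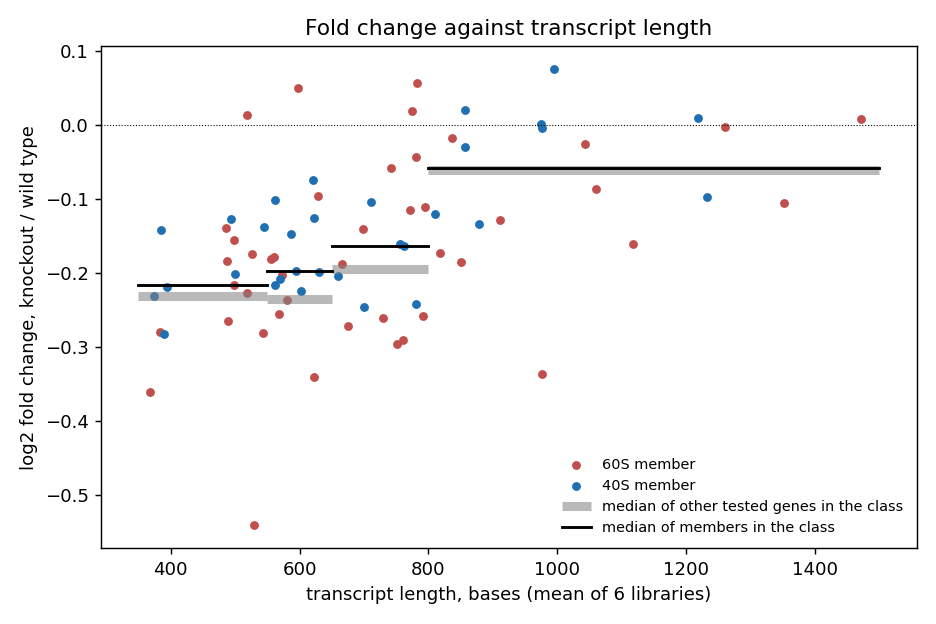
Log2 fold change (knockout over wild type, edgeR) of each member against its mean transcript length in bases, coloured by subunit, with the median of the members (black) and of the other tested genes (grey) in each length class. Both medians run from about -0.2 below 550 bases to -0.06 from 800 to 1500 bases, and Rpl36al at -0.54 and Rpl21 at -0.34 lie below their classes.

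After the correction for length and GC content, fitted in each library over all tested genes, the 6 members that were called lower were all of the large subunit: Rpl36al (-0.30), Rpl21 (-0.23), Rpl38 (-0.13), Rpl27 (-0.12), Rpl19 (-0.10) and Rpl15 (-0.09). Of the 17 called higher, 7 were of the large and 10 of the small subunit, among them Rpl32 (0.25) and Rpl13 (0.25). A fit to log2(TPM + 1), whose values are divided by transcript length, called 22 members lower and 10 higher (limma, adjusted p below 0.05). Dividing by a length that is the same in all libraries leaves a fold change between groups as it was, apart from the pseudocount. Of all tested genes 5.81% and 8.59% were called in that fit. The members' median was -0.06 on that scale and that of the other genes 0.10, where the counts gave -0.16 and 0.02. The Spearman correlation of the members' values with length was 0.399 on that scale, against 0.495 in counts. An edgeR fit with an offset for transcript length in each library called 38 members lower and 0 higher, with a median of -0.18. It called 1523 of all 12891 tested genes lower and 898 higher. DESeq2 called 47 lower and 0 higher, where 9.98% and 5.44% of all genes were called.

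Adding the near-identical copies to each member left 45 called lower and 0 called higher of 75, where 14.6% and 12.3% of 12801 genes were called, with a median log2 fold change of -0.15. The calls of Rpl36a, Rps6, Rps16 and Rpl23 were lost, and that of Rpl11 was gained. The copies with the most counts, in order, were not called: Rps12-ps3 had -0.04 (edgeR, adjusted p = 0.570), Gm10275 0.05, Rpl3-ps1 0.10, Gm15500 0.006 and Gm7536, a copy of Rpl27a, -0.08. The next, Rps2-ps10, was called lower, as given above. Calls further down went both ways: Gm15772, a copy of Rpl26, had -0.36 (edgeR, adjusted p = 9.19e-07). Rps3a2, a copy of Rps3a1, had 0.34 (edgeR, adjusted p = 3.66e-07).

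Members lay on 19 chromosomes of the assembly, with 14 on chromosome 7, 7 each on chromosomes 9 and 11, and 6 on chromosome 17. All 7 members on chromosome 11 fell (Rpl38, Rpl27, Rpl19, Rps27a, Rpl23a, Rpl26 and Rpl23), with a median of -0.25. The other 1043 tested genes of chromosome 11 had a median of -0.12, lower than the 0.02 over all genes. On chromosome 7, 12 of 14 members fell with a median of -0.17, and the other genes there had -0.01. Over the tested genes of all chromosomes, 14.4% were called lower.

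Rpl32 on chromosome 6 and Rpl13 on chromosome 8 were not called, with log2 fold changes of 0.01 and 0.06. Other genes of chromosomes 6 and 8 had medians of 0.16 and 0.17, above those of the remaining chromosomes. The members' median minus that of the other genes of the chromosome was -0.12 on chromosome 11, -0.16 on chromosome 7 and -0.15 on chromosome 6. The median of the chromosome 11 members minus that of all other members was -0.09. The number of copies of each chromosome in these cells was not tested.

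Fau and Rack1 encode small-subunit proteins under other symbols and are no members. Fau, a fusion of a ubiquitin-like protein and eS30, had 1397, 1529 and 1306 CPM in the knockout and 1622, 1755 and 1730 CPM in the wild type, a log2 fold change of -0.27 (edgeR, adjusted p = 1.18e-04). Its ranges did not overlap. Rack1, a scaffold on the head of the small subunit, was not called at -0.09 (adjusted p = 0.0996).

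Other TOP genes, mostly translation factors, did not share one direction: 5 of 18 fell, 5 rose and the median was -0.03. Of all tested genes 14.4% were called lower and 12.1% higher. Those that fell were Eef1d (-0.33), Eif3k (-0.31), Btf3 (-0.19), Eif3e (-0.13) and Npm1 (-0.11). Of these, Npm1 lies on chromosome 11, whose other tested genes had a median of -0.12. Those that rose were Eef2 (0.30), Eef1a1 (0.27), Eif4b (0.15), Gas5 (0.13) and Hnrnpa1 (0.12). After the length and GC correction 3 of the 18 were called lower and 6 higher, with a median of 0.05. That correction gave 6 lower and 17 higher of the 75 members, with a median of 0.02. It called 12.8% of all tested genes lower and 11.3% higher. The elongation factor Eef1a1 had 12250, 12010 and 12530 CPM in the knockout and 10350, 10040 and 10160 CPM in the wild type (edgeR, adjusted p = 2.21e-07), and the groups were far apart.

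Of 15 regulators of ribosomal protein transcription and of TOP mRNAs, 1 fell, 0 rose and 14 were not called, where 14.4% of all tested genes were called lower and 12.1% higher. This was Larp1, which binds the cap and the TOP sequence, at -0.14 (edgeR, adjusted p = 0.0233). Larp1 lies on chromosome 11, whose other tested genes had a median of -0.12. Myc had 3.67, 3.77 and 3.99 CPM in the knockout and 5.22, 4.87 and 5.48 CPM in the wild type, a difference of -0.44 that was not called (adjusted p = 0.220). Of 12 factors that load ribosomal proteins or respond to unassembled ones 1 fell, 2 rose and 9 were not called, shares near those over all genes. Grwd1, a chaperone of Rpl3, fell by 0.42 on the log2 scale (adjusted p = 3.65e-06). Heatr3, which takes part in import of Rpl5, rose at 0.25 (adjusted p = 0.0105), and Mdm2, the p53 ligase held back by Rpl5 and Rpl11, rose at 0.22 (adjusted p = 0.0308). Heatr3 lies on chromosome 8, whose other tested genes had a median of 0.17.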

How the data were processed

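RNA from 3 Hoxd12 knockout and 3 wild-type libraries was sequenced with a stranded mRNA kit, per the labels' protocols. The authors deposited expected counts, which are estimates that need not be whole, TPM and FPKM per gene with gene lengths, per the file headers. FPKM was not used. Among tools Bowtie 0.12.2 is listed, and mm8 and mm10 among builds, with no role given, per the submitters' processing notes. No source used here gives the quantifier, its annotation or the strand setting. Each of the 55450 gene identifiers matched GENCODE M21 (GRCm38), which supplied symbols, coordinates and GC content. Expected counts divide reads shared by similar loci, and 73 of the 75 members had a fractional count.

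Counts were rounded and tested with edgeR 4.0.16 in R 4.3.3 (filterByExpr, 12891 genes; TMM; robust quasi-likelihood; genotype only). P-values were Benjamini-Hochberg adjusted over all tested genes, and the common biological coefficient of variation was 6.74%. DESeq2 1.42.0 and limma 3.58.1 on log2(TPM + 1) were alternatives. A log2 fold change on that scale understates changes of low genes. The length and GC correction subtracted a loess surface (span 0.3) fitted per library. Copies shared at least 20% of 31-base words with a member. Results for a few genes are not reported here. The scripts were tested on simulated data. No 2 libraries of the same genotype agreed within sampling noise.

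Genes named were chosen by role, by the 10 largest changes among called members, the 5 highest TPM, the 3 values nearest 0 and the 2 shortest and 2 longest transcripts; others (among them Rps2, Rps12, Rpl12 and the genes named for their copies or chromosomes) were chosen after their values were seen. The members and gene lists were chosen with earlier results of these data known.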

Additional observations from a re-analysis of the deposited data

How the results depend on the processing

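The count of members called lower stayed within 1.5 times of 48, with 0 called higher, under DESeq2, other scalings, other count filters, a transcript length offset, copies added, and removal of the most abundant genes, of the ribosomal RNA locus or of chromosomes 6, 8 and 11. The length and GC correction gave 6 lower and 17 higher, a median of 0.02 (0.0226), a difference between subunits of -0.00906 and a chromosome 11 difference of -0.117. With TPM in place of counts, limma gave 22 lower and 10 higher, a median of -0.0585 and a subunit difference of -0.0238 with a pseudocount of 1 and equally with one of 0.1. The transcript length offset gave a subunit difference of -0.0233, and copies added, which like the ribosomal RNA alternative was chosen after seeing the data, gave a chromosome 11 difference of -0.13. Leaving out 1 library at a time gave 31 to 55 members called lower (31 without wild-type replicate 2), 0 called higher, medians of -0.202 to -0.117, subunit differences of -0.0420 to -0.0242, chromosome 11 differences of -0.116 to -0.0773 and differences in the share of counts of -1.24 to -0.78 percentage points around -0.998. Under the length and GC correction 26 of the 75 members lay below 0, against 66 without it. Among the 27 members named by rule, counting only genes that 1 of the fits compared had called, the sign turned there for Rpl10a (0.16), Rpl11 (0.14), Rpl13a (0.0384), Rplp1 (0.02), Rplp2 (0.0591), Rps19 (0.11), Rps25 (0.0698), Rps3a1 (0.0872) and Rps6 (0.0190), and for Rplp0 (0.17) under both TPM fits. Rplp0 also turned under the correction (0.0634), with no call in either fit. The cause of these changes was not tested. The TPM fit with a pseudocount of 1 also moved the median of the other tested genes, to 0.10 from 0.02 in counts.

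Same-numbered libraries did not deviate together (correlations over all 9 pairings from -0.06 to 0.04). The fit with the replicate number as a block called 48 members lower and 0 higher, with a median of -0.16, and changed no count beyond 1.5 times. Depth did not limit the test of most members, the lowest count of any member in a library being 319. Reads shared with copies limit Rpl5, Rps12 and Rpl12 more than depth does.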
